A study of Drosophila melanogaster with 24 samples.

Results

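A group of 18 of 22575 array spots of the fruit fly Drosophila melanogaster was bright in embryos and in all pupal groups and dimmer in both body parts of adult males. Each spot is read here as 1 probe and is named by its place in spot order, since the gene column of the spot tables used here is empty. The members were chosen from the measured values themselves. In each of the 4 young groups (embryos and the 3 pupal groups) the mean log2 signal had to exceed the higher of the head and abdomen means by at least 1, and the means of mixed-sex pupae and embryos had to lie less than 1 apart. The fall from young to adult is therefore a description here and carries no test.

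All 24 samples came from the isogenic line WI89. They formed 6 groups of 4: mixed-sex embryos of many ages, from 24 h of egg laying; mixed-sex, female and male pupae, collected as white prepupae within 0 to 1 h of pupariation and held for 12 h at 25 °C; and dissected heads and abdomens of males 24 to 48 h old. The mixed-sex pupal RNA was an equal mixture of male and female pupal RNA, so it is no separate collection of animals. Larvae, thoraces and adult females were not analysed here, and a low adult level refers to these 2 parts of young males. The title of the series speaks of sex-, stage- and tissue-dependent alternative splicing, and probes on such arrays can report a whole transcript or a part of it. The labels name no separate cultures or animals behind the replicates, so p-values here speak of sample-to-sample spread alone, part or all of which may be technical.

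Embryogenesis and metamorphosis are the periods of the fly's life in which tissues are built: cells divide, take on their fates and assemble organs, and pulses of the steroid hormone ecdysone time the steps of the pupal stage. At the pupal age sampled, larval tissues are being broken down while imaginal discs turn into adult structures. Transcripts used for growth and tissue building are commonly shared by these periods and low in finished adult tissue, apart from the germ line. In whole animals and body parts, fewer cells of a type and less RNA per cell cannot be told apart.

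After subtraction of the local background, the median spot of a sample had 60.8 to 144 scanner units with Cy3 and 5.19 to 61.7 with Cy5, and each group held 2 samples of each dye. The spots carrying a quality mark were the same for pairs of samples of opposite dye, which placed the 24 samples on 12 arrays, 4 of them brighter than the other 8. All head and abdomen samples lay on dimmer arrays. Array brightness therefore moves with the adult stage, and values within the dimmer arrays stand beside the result below. The 4 embryo samples stood apart in pairs at some members: both Cy3 embryo samples lay on brighter arrays and both Cy5 embryo samples on dimmer ones. At 6 members these pairs differed by at least 1 log2 unit, while 0 members did so in female pupae, male pupae, heads or abdomens and 1 did in mixed-sex pupae. Over all probes, the share with such a gap was 0.833% in embryos and 0.926% to 1.43% in the other groups. Most of these probes were dimmer than the members in embryos, so the shares are not at like brightness. The member list and the falls most affected are given below without each pair.

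Few probes met the rule. Embryos lay at least 1 log2 unit above both adult parts at 261 probes, and all 3 pupal groups did so at 155. Just 20 probes met the condition in all 4 young groups, against 85 probes with both adult parts at least 1 above every young group. The limit on the embryo and pupal means then removed 2 of the 20, probes 6238 and 8010, whose mixed-sex pupal means exceeded the embryo means by 3.58 and 3.35. The highest adult mean minus the lowest young mean, called the fall here, ran from -3.26 to -1.05 over the 18 members, with a median of -1.39. Just inside the threshold were probes 21682, 14121 and 22459 with falls of -1.05, -1.09 and -1.17, and just outside it probes 3279, 13470 and 4608 with -0.99, -0.96 and -0.92. No gap in the values parts the members from the probes that narrowly missed the rule.

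**Figure D1:**
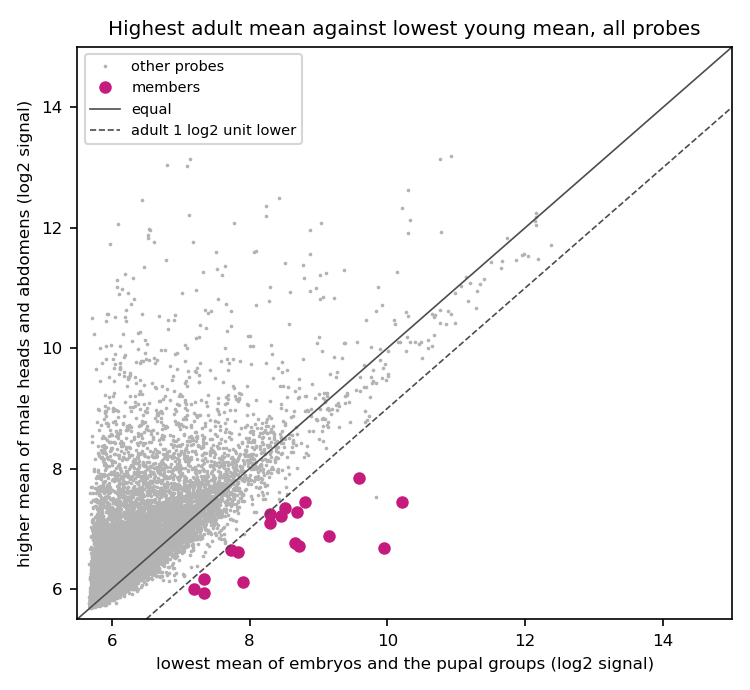
Each point is 1 probe. The horizontal axis gives the lowest mean log2 signal among embryos and the 3 pupal groups, and the vertical axis the higher mean of male heads and male abdomens. The 18 members lie on or below the dashed line, at falls between -3.26 and -1.05. The 2 grey points below the line are the probes removed for their difference between embryos and mixed-sex pupae.

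Probe 13203 had the largest fall of the members. Its log2 signal was 9.05, 9.40 and 11.39 in embryos, with 1 sample left out for a quality mark. In pupae it was 10.76, 10.77 and 11.11 in mixed-sex pupae (3 samples), 11.02, 10.27, 11.14 and 10.87 in female pupae, and 11.42, 10.73, 11.35 and 10.48 in male pupae. In adults it was 6.14, 6.04, 7.99 and 6.58 in heads, and 6.87, 5.97, 5.95 and 7.42 in abdomens. All young samples lay above all adult samples, and the groups of adults themselves spread over a range from 5.95 to 7.99. The higher adult mean lay 9.59-fold below the lowest young mean, with 9.95 ± 1.26 in embryos (SD, n = 3) against 6.69 ± 0.90 in heads (SD, n = 4). The size rested on embryo replicate 4: without it the fall was -2.53, against -3.26 with all samples.

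Probe 12125 showed the same order of stages with far less spread among adults. It measured 10.11, 10.07, 10.35 and 10.33 in embryos, and in pupae 10.72, 10.84, 10.65 and 10.87 in mixed-sex pupae, 11.48, 10.55, 11.17 and 11.24 in female pupae and 11.09, 11, 11.45 and 10.46 in male pupae. In adults it measured 7.45, 7.37 and 7.49 in heads and 7.37, 7.31 and 7.29 in abdomens, with 1 marked sample left out in each. Every pupal sample lay above every embryo sample, and every embryo sample above every adult sample. The fall was -2.78, a 6.85-fold lower adult signal on the same normalized scale, where the offset understates ratios at dim signals.

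Probe 14443 measured 7.98, 8.31, 10.25 and 10.21 in embryos, 9.53, 8.95, 9.25 and 9.15 in mixed-sex pupae, 9.31, 8.57, 9.56 and 9.15 in female pupae and 9.67, 9.04, 9.47 and 9.17 in male pupae. Its adult values were 6.84, 6.72, 7.01 and 6.93 in heads and 6.44, 6.56, 6.44 and 6.64 in abdomens. The fall was -2.27, and the 4 embryo samples fell into a low pair and a high pair on both sides of the pupal values. Probe 5761 repeated this pattern with a wider embryo range. It measured 7.10, 6.76, 9.44 and 9.37 in embryos, 8.23, 7.85, 8.07 and 8.12 in mixed-sex pupae, 8.01, 7.77, 8.28 and 7.97 in female pupae and 7.97, 7.76, 8.20 and 7.68 in male pupae. Adult samples lay close together, at 6.07, 6.27, 6.08 and 6.02 in heads and 5.93, 6.11, 5.87 and 6.10 in abdomens. Its lower embryo pair lay between the adult samples and the pupae, and its fall was -1.79.

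Probes 3742 and 20761 had nearly the same profile. Probe 3742 measured 9.46, 9.16, 8.57 and 8.60 in embryos, 8.78, 8.99, 8.67 and 8.42 in mixed-sex pupae, 9.33, 9.26, 9.11 and 9.16 in female pupae and 8.78, 8.85, 8.97 and 8.28 in male pupae. Its adult values were 6.48, 6.09, 7.21 and 7.07 in heads and 6.72, 6.26, 6.43 and 6.99 in abdomens. Here the embryo pair on brighter arrays was the lower one, opposite to probes 14443 and 5761. Probe 20761 measured 9.37, 9.32, 8.36 and 8.40 in embryos, 8.61, 8.79, 8.75 and 8.49 in mixed-sex pupae, 9.30, 9.20, 9.30 and 9.08 in female pupae and 8.80, 8.78, 8.79 and 8.48 in male pupae. Its adult values were 6.18, 6.17, 7.54 and 7.14 in heads and 6.69, 6.18, 6.23 and 7.12 in abdomens. Centred on their own means over the groups, the 2 probes differed by at most 0.07 log2 units in any group, and their falls were -2.0 and -1.90.

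Probe 15387 had 9.18, 9.40, 10.54 and 10.38 in embryos, 8.94, 9.81, 10.60 and 9.13 in mixed-sex pupae, 9.61, 10.65, 10.03 and 9.97 in female pupae and 9.71, 9.80, 9.20 and 9.64 in male pupae. In adults it had 8.03, 7.41, 8.53 and 7.43 in heads and 7.30, 8.04, 6.87 and 8.02 in abdomens. Its SD was between 0.26 and 0.75 in the 6 groups, and its fall was -1.74. Probe 4019 had 9.02, 8.38, 8.76 and 8.59 in embryos, 9.29, 9.14, 8.77 and 8.60 in mixed-sex pupae, 9.63, 9.19, 8.96 and 8.98 in female pupae and 9.24, 8.92, 9.28 and 8.65 in male pupae. In adults it had 6.57, 6.96, 6.76 and 7.06 in heads and 7.42, 6.88, 7.43 and 7.40 in abdomens. The abdomen mean was the higher adult mean here, with a fall of -1.41.

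**Figure D2:**
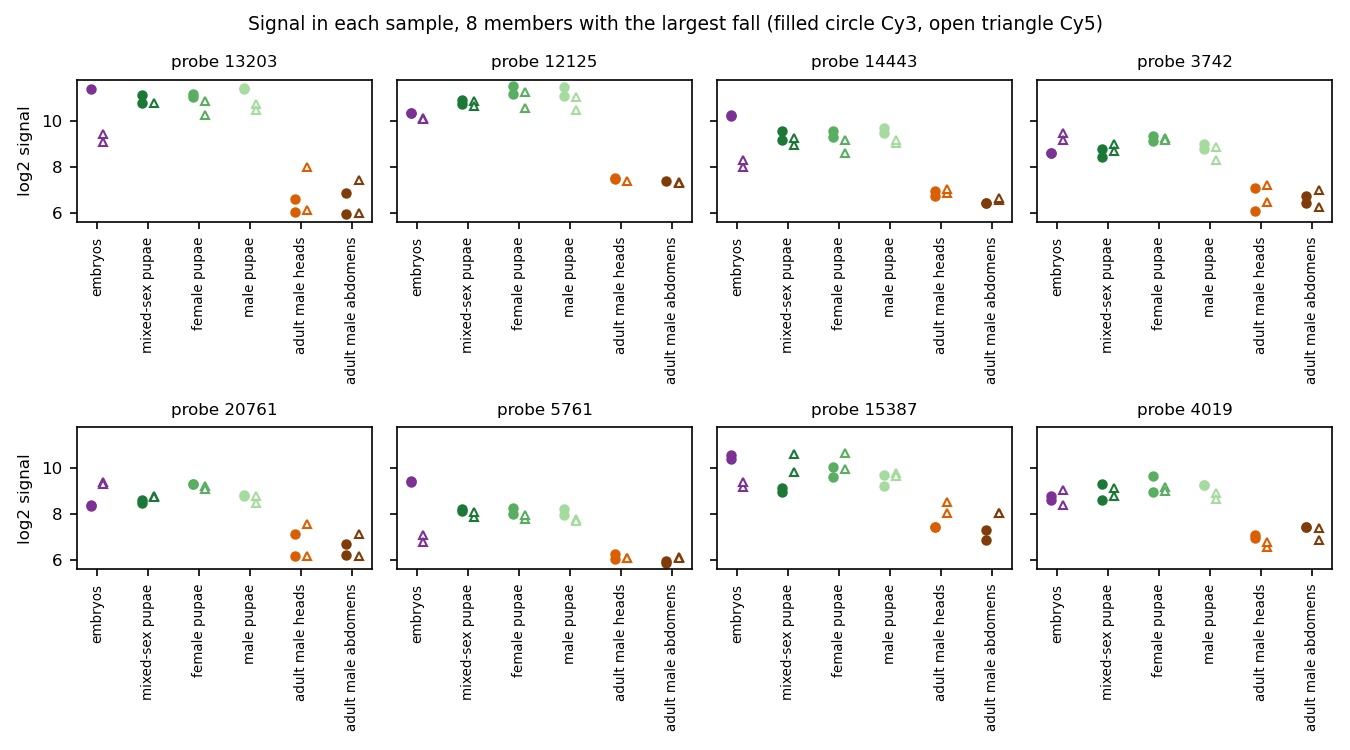
Log2 signal of the 8 members with the largest falls, 1 panel per probe and 1 point per sample, with filled circles for Cy3 and open triangles for Cy5 samples. Groups run from embryos to adult male abdomens. In each panel the adult samples lie below all embryo and pupal samples, and both Cy5 embryo samples lie below both Cy3 ones at probes 12125, 14443, 5761 and 15387, and below the 1 Cy3 sample left at probe 13203. At probes 3742 and 20761 they lie above.

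The other 10 members had falls between -1.4 and -1.05. Probe 14418 averaged 7.67 in embryos, 7.34 in mixed-sex pupae, 7.42 in female pupae, 7.41 in male pupae, 5.94 in heads and 5.91 in abdomens. Probe 8422 averaged 8.90 in embryos, 8.81 in mixed-sex pupae, 8.82 in female pupae, 8.91 in male pupae, 7.34 in heads and 7.44 in abdomens, and had the narrowest range of young means among the members. Probe 21061 averaged 8.46 in embryos, 8.80 in mixed-sex pupae, 9.01 in female pupae, 8.79 in male pupae, 6.86 in heads and 7.21 in abdomens, and probe 7183 averaged 7.83 in embryos, 7.89 in mixed-sex pupae, 8.02 in female pupae, 7.97 in male pupae, 6.61 in heads and 6.53 in abdomens. Both were lower in embryos than in any pupal group. Probe 5551 averaged 9.10 in embryos, 8.53 in mixed-sex pupae, 8.58 in female pupae, 8.30 in male pupae, 7.10 in heads and 6.96 in abdomens. Probe 22459 averaged 9.10 in embryos, 8.57 in mixed-sex pupae, 8.83 in female pupae, 8.51 in male pupae, 7.29 in heads and 7.34 in abdomens. At these 2 probes embryos had the highest mean. Probe 8742 averaged 7.75 in embryos, 7.36 in mixed-sex pupae, 7.61 in female pupae, 7.19 in male pupae, 6.01 in heads and 5.97 in abdomens, and its embryo mean was also the highest. Probe 14679 averaged 7.34 in embryos, 7.77 in mixed-sex pupae, 7.70 in female pupae, 7.78 in male pupae, 6.16 in heads and 6.10 in abdomens, and it was lowest in embryos among the young groups. Probe 14121 averaged 8.19 in embryos, 8.0 in mixed-sex pupae, 8.27 in female pupae, 7.73 in male pupae, 6.48 in heads and 6.65 in abdomens, and probe 21682 averaged 8.29 in embryos, 8.39 in mixed-sex pupae, 8.69 in female pupae, 8.31 in male pupae, 6.94 in heads and 7.25 in abdomens. At both, female pupae had the highest mean.

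**Figure D3:**
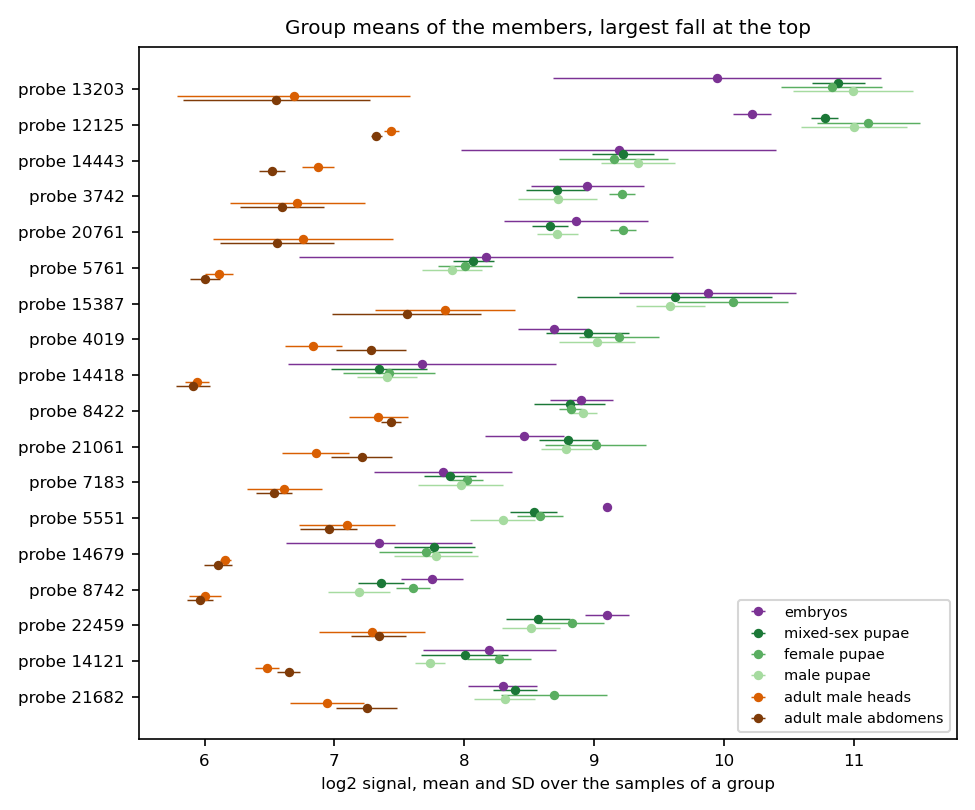
Mean log2 signal of each of the 18 members in the 6 groups, with bars of 1 SD over the samples of a group (n = 4, or 3 where a marked spot was left out). Members run from the largest fall at the top, at -3.26, to the smallest at the bottom, at -1.05. Head and abdomen means lie left of all young means at every member, and embryo bars are widest at probes 5761, 13203 and 14443.

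At all 18 members the 8 adult samples lay below all 16 young samples, which held for 0.753% of all probes. The rule used the same contrast, so nothing is read from that count. Heads were the higher adult part at 12 members and abdomens at 6. The median of heads minus abdomens was 0.05 at the members and 0.05 over all probes, so no lean of the members is read from this count. The lowest young group was embryos at 7 members, male pupae at 6, mixed-sex pupae at 4 and female pupae at 1. Pupae lay above embryos at 9 members and below them at the other 9, by the mean of the 3 pupal groups, with differences from -0.63 to 0.95 on the log2 scale. These 18 probes therefore had no common direction between the embryo and pupal stages, within the limit the rule set.

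The adult signal of the members was set against background. It exceeded the local background by more than 2 SD, taken over all spot backgrounds of a sample, in 143 of 144 adult values and in all 288 young values. The criterion was met by 100% of all probes in the Cy3 samples and by 74.0% to 100% in the Cy5 samples, so it says little of single members. Before normalization, the members' median signal over background was 122 scanner units in adult and 694 in young Cy3 samples, and 16.9 in adult and 231 in young Cy5 samples. After it, 14 of the 18 lay above the median of all probes in heads (6.21) and 14 did so in abdomens (6.21), although brightness also depends on the probe's own sequence. Probes 5761, 14418, 14679 and 8742 lay below that median in both parts. The members are called dimmer in adult males here, and whether a transcript was absent there was not tested.

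Since adult samples lay on dimmer arrays, the fall is also given within dye, within the dimmer arrays and within single arrays. These samples were among those that chose the members, so their direction was largely fixed by the rule and nothing is read from it about brightness or dye. With the 16 samples of the dimmer arrays, the adult means lay below the lowest young mean at all 18 members, with a median fall of -1.26 and a fall of at least 1 at 13. On the dimmer arrays male pupae were replicate 1 alone, and embryos were the Cy5 replicates 1 and 2, so these young means rest on few samples. In the 12 Cy3 samples the median fall was -1.41 with 16 members past 1, and in the 12 Cy5 samples it was -1.20 with 11 past 1. The direction held at all 18 members in both. A set of 4 arrays held 1 adult and 1 young sample, a different young group on each. On the array of head replicate 4 and embryo replicate 2 the adult signal was lower at 18 of 18 members, by a median difference of -1.47. It was lower at 18 of 18 on the array of head replicate 3 and female pupae replicate 3 (median -1.87). The same count was found for abdomen replicate 4 and male pupae replicate 1 (median -1.66), and for abdomen replicate 1 and mixed-sex pupae replicate 3 (median -1.66). Over all probes, the adult sample was the lower one at 49.6% to 55.4% on these arrays, with medians between -0.03 and 0.00. The difference reached 1 log2 unit at 13, 18, 17 and 18 of the 18 members in the order given, and at 1.82%, 2.22%, 3.11% and 2.03% of all probes. The part of array brightness in the fall was not tested.

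The rule was also applied without all samples of 1 replicate number, and the probes it chose were then read in the 6 samples left out. Without replicate 1 it chose 18 probes, and of the 17 that could be read in the samples left out, 17 had a higher adult value below the lowest young value, 12 of them by at least 1. Without replicate 2 it chose 20, with 19 of 19 in this direction and 11 past 1. Without replicate 3 it chose 19, with 17 of 17 and 13 past 1, and without replicate 4 it chose 17, with 17 of 17 and 8 past 1. Over all probes, 8.43% to 13.0% of single-replicate readings had this direction and 0.0691% to 0.105% passed 1. The median fall in the samples left out was between -1.33 and -0.95, against -1.44 to -1.30 in the samples that chose the probes. Samples left out shared arrays with samples that were used, so these readings are not fully separate.

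No spot next to a member was lowered in adults as far as any member. The members stood in 17 of the 105 rows, between columns 13 and 206 of 215, and no 2 members were direct neighbours. Around them lay 141 neighbouring spots, whose median difference of adult minus young means, taken per member, was between -0.23 and 0.12. The median over all probes was -0.01. A total of 0 neighbours reached a difference of -1, the lowest being -0.96 beside probe 13203. The share of all probes that reached -1 is not given here, so nothing is read from this count about place on the array. The difference at the members themselves ran from -4.04 to -1.33 on this measure.

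The 2 sexes were compared at the pupal stage, a difference the rule did not use as such. A count of 0 of 18 members differed between female and male pupae by limma at an adjusted p of 0.05, where 0.656% of all probes were called higher in females and 4.42% higher in males (5.07% in all). At an unadjusted p under 0.05 there were 3 members, all higher in females, while 13.2% of all probes passed this mark. Females had the higher estimate at 14 members and males at 4, with a median of 0.20 over the members and 0.02 over all probes (female minus male, log2). The share of all probes with a higher female estimate is not given here, so no lean of the members is read from this count. Probe 14121 measured 8.0, 8.59, 8.31 and 8.17 in female pupae and 7.89, 7.65, 7.75 and 7.64 in male pupae. It averaged 8.27 ± 0.25 in female pupae and 7.73 ± 0.12 in male pupae (SD over 4 samples per sex), a difference of 0.53 (SE 0.19, limma adjusted p = 0.155). Probe 8742 measured 7.74, 7.60, 7.65 and 7.43 in female pupae and 7.31, 7.46, 7.07 and 6.92 in male pupae. It averaged 7.61 ± 0.13 in female pupae and 7.19 ± 0.24 in male pupae, a difference of 0.42 (SE 0.13, limma adjusted p = 0.0731). Every female sample of probe 14121 lay above its male samples, while at probe 8742 the female minimum of 7.43 lay below the male maximum of 7.46. Probe 3742 differed by 0.50 (SE 0.24, limma adjusted p = 0.372).

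These counts depended on the samples in the fit. Probe 8742 passed with the array as a random block (0.35, limma adjusted p = 0.0411), without female pupae replicate 4 (0.49, limma adjusted p = 0.0352) or without male pupae replicate 2 (0.50, limma adjusted p = 0.0382). Without the 2 Cy3 embryo samples, or without the 2 Cy5 ones, probes 8742 and 14121 both passed, with limma adjusted p between 0.0423 and 0.05 and differences of 0.41 to 0.54. The 95% intervals lay wholly within 1 log2 unit of 0 at 15 of the 18 members, so that a 2-fold difference in normalized signal lay outside the interval there. The widest intervals ran from -1.13 at probe 13203 to 1.19 at probe 15387.

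The adult signal of the members was then compared between body parts, heads minus abdomens. The rule limited the higher of the 2 means and not their difference as such. At members dim in adults, such as probe 8742 (6.01 in heads, 5.97 in abdomens), that limit also left little room for a difference. The count of members called is thus partly bound by the rule. By limma 0 of 18 members differed at an adjusted p of 0.05, where 7.57% of all probes were called higher in heads and 11.5% higher in abdomens (19.1% in all). At an unadjusted p under 0.05 there was 1 member, against 28.3% of all probes. Probe 4019 averaged 6.84 ± 0.22 in heads and 7.28 ± 0.27 in abdomens (SD, n = 4 each), a difference of -0.45 (SE 0.19, limma adjusted p = 0.117). It passed with a background offset of 10 (-0.65, limma adjusted p = 0.0435). With heads and abdomens fitted alone it passed too (-0.45, limma adjusted p = 0.036), as did probe 14443, higher in heads (0.36, limma adjusted p = 0.0197). Probe 21061 had -0.35 (SE 0.20, limma adjusted p = 0.259). The other estimates lay between -0.31 and 0.36, and at 15 of 18 members the 95% interval lay within 1 log2 unit of 0.

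**Figure D4:**
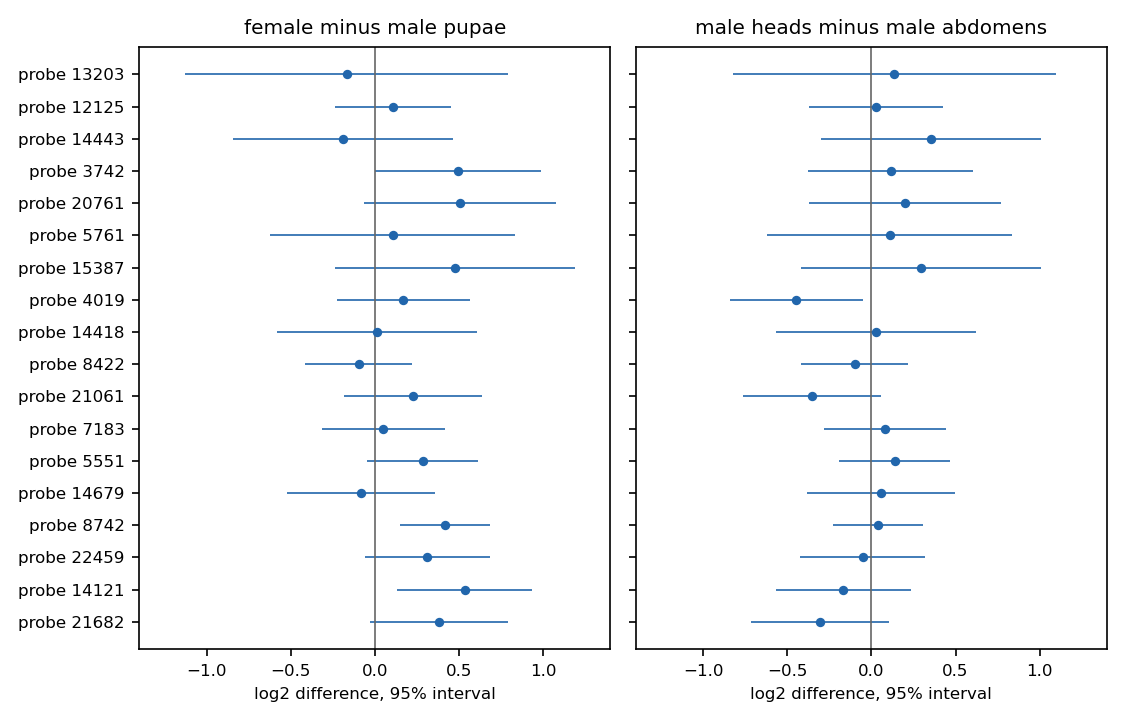
Difference between female and male pupae (left) and between male heads and male abdomens (right) at the 18 members, as log2 differences with 95% intervals from the limma fit. Most female minus male estimates lie right of 0 (14 of 18), and 3 intervals there exclude 0 before adjustment for multiple tests. On the right 1 interval excludes 0, that of probe 4019.

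Mixed-sex pupae were set against the mean of female and male pupae as a measure of technical agreement, since the mixture holds both RNAs in equal amounts. By limma 0 of 18 members differed, as against 0.00443% of all probes (1 probe), and 0 members had an unadjusted p under 0.05, against 2.67% of all probes. The estimates ran from -0.31 at probe 20761 to 0.11 at probe 5761, with a median of -0.09. The median standard error was 0.17 at the members and 0.09 over all probes. The same held for the sex and tissue comparisons, where the median standard error was 0.20 at the members and 0.10 over all probes. Standard errors were thus larger at the members than at the median probe, which makes a call less likely. Each probe had 1 spread over all 24 samples, so the embryo spread enters comparisons without embryos. At probe 5761 the SD was 0.11 in heads, 0.12 in abdomens and 1.44 in embryos, and the standard error of heads minus abdomens was 0.35. The dye term of the fit passed at 0 members, against 7.11% of all probes.

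Embryo samples parted into pairs at the members. The gap between the Cy3 and Cy5 samples of embryos was 2.48 at probe 5761, 2.17 at probe 13203, 2.09 at probe 14443, 1.73 at probe 14418, 1.20 at probe 14679 and 1.17 at probe 15387, in log2 units. It was negative at 9 members, down to -0.96 at probe 20761, -0.83 at probe 14121 and -0.73 at probe 3742. The median size of the embryo gap was 0.78 at the members, against 0.14 to 0.31 in the other groups at the same members and 0.13 over all probes in embryos. The median log2 signal of the embryo samples was 8.48 to 8.94 at the members and 6.21 over all probes. The offset understates differences at dim probes, so the value over all probes is not at like brightness. A fit with 1 mean per group and dye, chosen after these values were seen, tested the embryo gap against the mean gap of the other 5 groups. It called 5 members with a larger Cy3 minus Cy5 gap in embryos and 0 with a smaller one, where 1.20% and 2.31% of all probes were called. The rule used the embryo means that hold these samples, so a high Cy3 pair can help a probe enter. These counts and p-values are thus not free of the choice of members, and nothing is read from them about the members as a set. The differences were 2.33 at probe 5761 (SE 0.17, limma adjusted p = 1.6e-06) and 1.88 at probe 14443 (SE 0.23, limma adjusted p = 0.000473). They were 1.91 at probe 15387 (limma adjusted p = 0.00455), 1.61 at probe 14418 (limma adjusted p = 0.00479) and 0.98 at probe 14679 (limma adjusted p = 0.0327). At probe 13203 the difference of 2.08 (SE 0.70) did not pass (limma adjusted p = 0.119), and 1 of its 4 embryo samples had been left out.

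**Figure D5:**
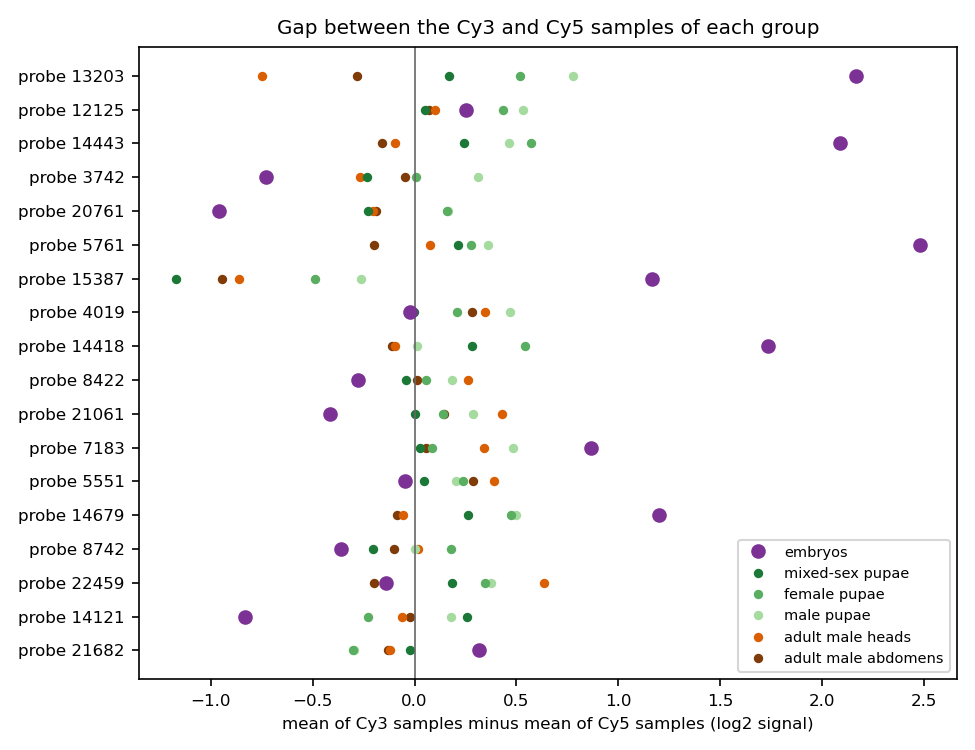
Mean of the Cy3 samples minus mean of the Cy5 samples within each group, in log2 units, for the 18 members. Embryos (large points) reach from -0.96 to 2.48, while the other groups stay between -1.17 and 0.78.

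The dye, the brightness of the array and the replicate numbers 1 and 2 against 3 and 4 coincide in embryos and cannot be told apart there. Embryos of all ages laid within 24 h were pooled, and the age makeup of each embryo sample was not analysed here. Without the 2 Cy3 embryo samples the rule kept 11 of the 18 members and gave 14 probes in all. Probes 13203, 14443, 5761, 14418, 7183, 14679 and 21682 then left. All 18 kept the direction, with a median fall of -1.23, and the smallest, at probe 14679, was -0.56. Without the Cy3 pair the fall was -2.51 at probe 13203, -1.26 at probe 14443, -0.78 at probe 5761 and -0.82 at probe 14418. Without the Cy5 pair it was -4.13, -2.30, -1.83 and -1.44 at these probes. Without the 2 Cy5 embryo samples the rule kept 16 of 18 and gave 21 probes. Probes 5761 and 14418 then left because their embryo means exceeded the mixed-sex pupal means by more than 1, with pupa minus embryo differences of -1.34 and -1.21.

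The adult level of the members was also compared by what else the array held, a comparison chosen after the values were seen. Of the 8 adult samples, 4 shared an array with an embryo or pupal sample and 4 lay on arrays of adult samples alone, with 2 heads and 2 abdomens, and 2 samples of each dye, in each set. The first 4 lay on 4 arrays and the other 4 on 2 arrays, so the second set holds fewer separate arrays than samples. At probe 13203 the first set averaged 7.22 and the second 6.02, at probe 20761 they averaged 7.12 and 6.19, and at probe 3742 they averaged 7.0 and 6.32. At these 3 members all 4 samples sharing an array with young samples lay above the other 4, which held for 1.42% of all probes. By limma 0 members passed, and 0.00% of all probes were called higher and 0.0310% lower. The differences at these probes were 1.19 (SE 0.39), 0.93 (SE 0.19) and 0.68 (SE 0.19), with limma adjusted p = 0.556, 0.107 and 0.437. The set sharing arrays was higher at 14 of 18 members, with a median difference of 0.17, against 53.5% of all probes and a median of 0.01. At an unadjusted p under 0.05 there were 4 members, against 7.86% of all probes. With the array as a random block 0 members passed, and the limma adjusted p of probe 20761 was 0.5. The part of the other sample on the array in these values was not tested. With the 4 adult samples of adult arrays alone, the fall was -3.87 at probe 13203, -2.44 at probe 20761 and -2.36 at probe 3742, and the rule gave 25 probes including all 18. With the other 4 it gave 16, without probes 5551 and 21682.

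Some members deviated together from their group means. After removal of group means and dye over the 24 samples, which share 12 arrays, the 153 pairs of members had a median Pearson correlation of 0.13, and 8 pairs exceeded 0.8. Of these 8, 5 joined probes 14443, 5761, 14418 and 15387, whose embryo samples parted the same way. Without embryos the correlation of probes 14443 and 5761 was 0.80, against 0.91 with them, and that of probes 5761 and 14418 was 0.64, against 0.84. For probes 3742 and 20761 it was 0.90 without embryos and 0.91 with them (Spearman 0.91 in both). Each of these 2 probes was the other's closest among all probes compared. At every other member the closest probe was not a member. At probe 5761 the closest probe had a correlation of 0.96, while its closest member, probe 14443, had 0.91 and ranked 15. The closest member ranked 2 at probe 14443 and 1941 at probe 12125. The members are few among all probes, so a closest probe outside them says little. No share over all pairs of probes is given here, and whether deviating together was particular to the members was not tested. Probes 4019 and 21061 had 0.81 with and without embryos, and their centred group means differed by at most 0.16. Probes 3742 and 5551 had 0.80 without embryos and 0.81 with them. Whether probes of a pair report 1 transcript was not analysed here.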

How the data were processed

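RNA of 24 samples was measured in 1 channel per sample. Per the file headers, the authors deposited mean and median signal intensity and background intensity for each spot, together with a quality mark (a score with no stated meaning). Their deposited value table held natural log values of background-subtracted mean signal, as its values show, and served as an alternative. The series text says unamplified mRNA was labelled, while the sample labels give total RNA. No source used here gives the scanner or its software.

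In R 4.3.3 with limma 3.58.1, normexp with an offset of 50 corrected each mean signal for its median local background. Spots with a quality mark above 0 were left out (1338 probes in at least 1 sample, 2 of them members). Log2 values were quantile normalized over all samples. The offset understates changes of dim probes. Group means chose the members. Contrasts came from 1 limma fit per probe to all samples, with group means, a dye term and an intensity trend, and Benjamini-Hochberg adjustment over 22575 probes. No filter on dim probes was used, so all 18 members were tested. The code was tested on simulated data. The number of arrays limits precision.

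The members, lists and tests were chosen with earlier results of these data known. The naming rule took the 8 members with the largest fall, the 3 probes nearest the threshold on each side, members past the threshold of a contrast (0 were found) and the 3 members with the highest young mean (probes 12125, 13203 and 15387). All 18 members are named here, which goes beyond that rule. The other members were named after their values were seen, and so were the fits on embryo pairs and on array sharing. Alternatives were other background corrections, scalings, thresholds, blocks, subsets and leaving out each sample.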

Additional observations from a re-analysis of the deposited data

Results flagged for a closer look

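Over the members and groups with 4 values, 104 checks looked for single samples lying apart, and 4 were found, where about 5% arise by chance. At probe 20761 the log2 signal of male pupae replicate 4 was 8.48, while the remaining male pupae had 8.78 to 8.80. At probe 4019, abdomen replicate 2 had 6.88, against 7.40 to 7.43. At probe 8422, embryo replicate 1 had 9.26, against 8.74 to 8.82. At probe 8742, mixed-sex pupae replicate 1 had 7.10, against 7.42 to 7.48.

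The gap between Cy3 and Cy5 samples differed between embryos and the mean of the other 5 groups at 5 members by limma: 2.33 at probe 5761, 1.91 at probe 15387, 1.88 at probe 14443, 1.61 at probe 14418 and 0.98 at probe 14679, in log2 units. In embryos the 2 Cy3 samples also lay on brighter arrays, which cannot be told apart from the dye. The rule used the embryo means, so this count is not free of the choice of members.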

How the results depend on the processing

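The direction of the fall held at all 18 members in all 38 settings that recomputed it. These settings reused samples that chose the members, so the direction was largely fixed by the rule and nothing is read from it. Of 684 single falls, 602 moved by less than 1 SD between replicates and 82 by at least that. In 24 of the 38 settings just 1 sample was left out. In the other 14 the fall moved by at least 1 SD in 8 settings at probes 13203 and 14679, in 7 at probe 14418 and in 1 at probe 15387. The number of probes meeting the rule depended on the background correction: 40 with an offset of 10 and 36 with plain subtraction (median falls of the 18 members -1.95 and -1.88, all 18 among them), and 30 with the deposited natural log values (17 of the 18). Cy5 samples normalized alone gave 7 probes, all members, with a median fall of -0.97; the report's -1.20 keeps the normalization over all 24 samples. A threshold of 1.5 kept 7 members and a threshold of 2 kept 4. Leaving out 1 sample gave 16 to 21 probes, with median falls from -1.44 to -1.32. Without embryo replicate 4, 15 of the 18 were kept.

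Between female and male pupae, 39 of 44 settings called 0 members. The array as a random block called 1, leaving out 1 sample called 0 to 1, and leaving out either embryo pair called 2. Between heads and abdomens, 42 of 44 called 0, an offset of 10 called 1 and a fit of these groups alone called 2. The mixing comparison called 0 in all 44. Settings that left out an embryo pair were added after seeing the data. The causes were not tested. Samples with the same replicate number had a median correlation of deviations of 0.02 (from -0.83 to 0.72), against a median of 0.01 for samples of different numbers. The medians show no pairing by number, while single pairs ranged widely and some shared an array. The replicate block called 0 members in each comparison. Samples of the same array did deviate together in all 12 pairs (median correlation 0.35, lowest 0.13; random-block correlation 0.49), which the fits reported above leave out. With the array as a random block, the embryo gap called 5 members and the sets of adult samples 0, as without it. Signal over background in the Cy5 samples limits the dimmest values.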
